A study of Rattus norvegicus with 30 samples.

Results

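This is an account of how the hippocampus of control rats changed between the early and the late part of a seizure study. The study treated rats with kainate, a glutamate receptor agonist that provokes limbic seizures, or with PBS, phosphate-buffered saline, and measured total RNA of the hippocampus on Affymetrix arrays. The arrays used here come from PBS rats killed 240 h after PBS (3 arrays), and from PBS rats killed 24 h (3 arrays) and 1 h (3 arrays) after it, which together form 1 group of 6 earlier arrays. These 9 arrays were chosen by their labels, out of 30 arrays in the series, and all 9 carry PBS alone. The labels used here give no strain, sex, age or dose, name no genetic change and do not say whether each array holds 1 animal, so p-values measure the spread between arrays. PBS rats of 72 h and 6 h were kept out of the comparison because their arrays stand apart as a set. In log2 signal those 6 arrays correlated with each other at a median r of 0.965, and with the 9 arrays used here at a median r of 0.932, the same as the 9 arrays had among themselves.

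The hippocampus goes on maturing in a young rat after weaning. Oligodendrocytes wrap axons in myelin over this period, first making the lipids and structural proteins of the inner sheath and later the proteins of its outer surface. At the same time neurons finish growing axons, and the proteins of growth cones and of dividing precursors decline, while synaptic and calcium-handling proteins accumulate. Hours after a treatment the brain can also carry traces of handling, of the time of day and of the stress of the procedure. Age at death, hour of day and any order in which arrays were made are not given by the labels. They cannot be told apart from time since PBS here.

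Values are signal intensities, 1 per probe set, a group of short probes to 1 transcript. Levels are given on the linear scale, and changes are log2 differences of 240 h minus the 6 earlier arrays with their standard error, where 1 stands for a doubling. A probe set was tested when its signal was above 35 in at least 3 of the 9 arrays, which left 5626 probe sets and 3370 genes. A probe set or gene is called higher or lower when its limma p-value, adjusted by Benjamini-Hochberg over all 5626 probe sets, was under 0.05. In a piece of tissue, fewer cells of a type and less RNA per cell cannot be told apart.

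At 240 h, 300 probe sets differed from the earlier PBS arrays, 5.33% of those tested. Of these, 131 were higher (2.33%) and 169 were lower (3%). An unadjusted p under 0.05 was found for 1199 (21.3%). Counted by gene, with the probe set of the highest signal standing for the gene, 204 of 3370 were called (6.05%), of which 92 were higher (2.73%) and 112 were lower (3.32%). The median change over all genes was 0.02, a value that the common scaling of the arrays holds near 0. Of the 204 called genes, 49 were called whichever of the 9 arrays was left out and 70 in 3 or fewer of these 9 fits. Of the 204, 78 had several probe sets, and in 12 of the 78 all of them passed in the same direction. In 290 of the 300 called probe sets (96.7%) no 240 h array overlapped any of the 6 earlier ones, against 763 of all probe sets tested (13.6%).

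None of 9 measures of array and RNA quality passed a test between the groups. The 3′ to 5′ ratios of beta-actin, Gapdh and hexokinase, 4 spike-in transcripts, the array median and the share of values at the floor were compared. Their lowest p-value was 0.31 by an exact two-sided permutation test of 3 against 6 arrays, with an adjusted p of 0.952 for each. The 84 splits allow no p below 0.0238. After adjustment over 9 measures, no single measure could have passed on its own, however large its difference. Hippocampal markers were present in all 9 arrays: the neuron markers summed to a signal of 26788 to 28747 at 240 h and 26696 to 28586 earlier, and those of principal cells to 5659.7 to 7048 and 6086 to 6683. The choroid plexus transcript Ttr, which encodes transthyretin and reaches a hippocampal sample with attached plexus, was uneven within each group. It read 2746, 805 and 329.5 at 240 h, against 792, 3126 and 2442 at 24 h and 125, 104 and 1927 at 1 h, and it did not pass the test (0.30 ± 1.02, adjusted p = 0.89).

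Of 30 gene lists, the myelin list had the highest median change at 240 h. Lists and members were chosen with earlier results of these data known, so this rank and the shares of every list are a description and not a test. Of 14 oligodendrocyte and myelin genes tested, 7 rose (50%, against 2.73% of all genes) and none fell, with a median change of 0.47. Their summed signal was 14414 to 15553 at 240 h and 8098 to 10098 earlier, so the groups did not overlap. Sums without overlap were common among the lists. They were also found for clock, interneuron, astrocyte, reactive astrocyte, microglia, matrix, synaptic vesicle and neuropeptide genes, so separation alone does not mark out a list. The largest rise of any named gene was that of Mal, a membrane proteolipid of compact myelin.

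Mal read 939, 1442 and 1386 in the 240 h arrays, against 312 to 462 (median 368) in the 6 earlier arrays. Even the lowest 240 h array lay far above the highest earlier one, although the largest rises were named only where groups did not overlap. The change was 1.74 ± 0.16, or 3.34-fold (adjusted p = 4.24e-05). Mog, a protein of the outermost myelin layer, read 584, 644 and 541 at 240 h, against 179 to 229 (median 200.3) earlier, a change of 1.55 ± 0.12 or 2.92-fold (adjusted p = 1.05e-05). The groups were far apart on this probe set, but the second Mog probe set changed by 0.17 ± 0.19 and did not pass. Mobp, a small basic protein of the compact sheath, read 2486, 2315 and 2072 at 240 h, against 746 to 961 (median 842) earlier (1.43 ± 0.11, 2.69-fold, adjusted p = 1.01e-05). Of its 4 probe sets, 3 rose, by 1.27 to 1.58, and 1 read -0.10 without passing.

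**Figure D1:**
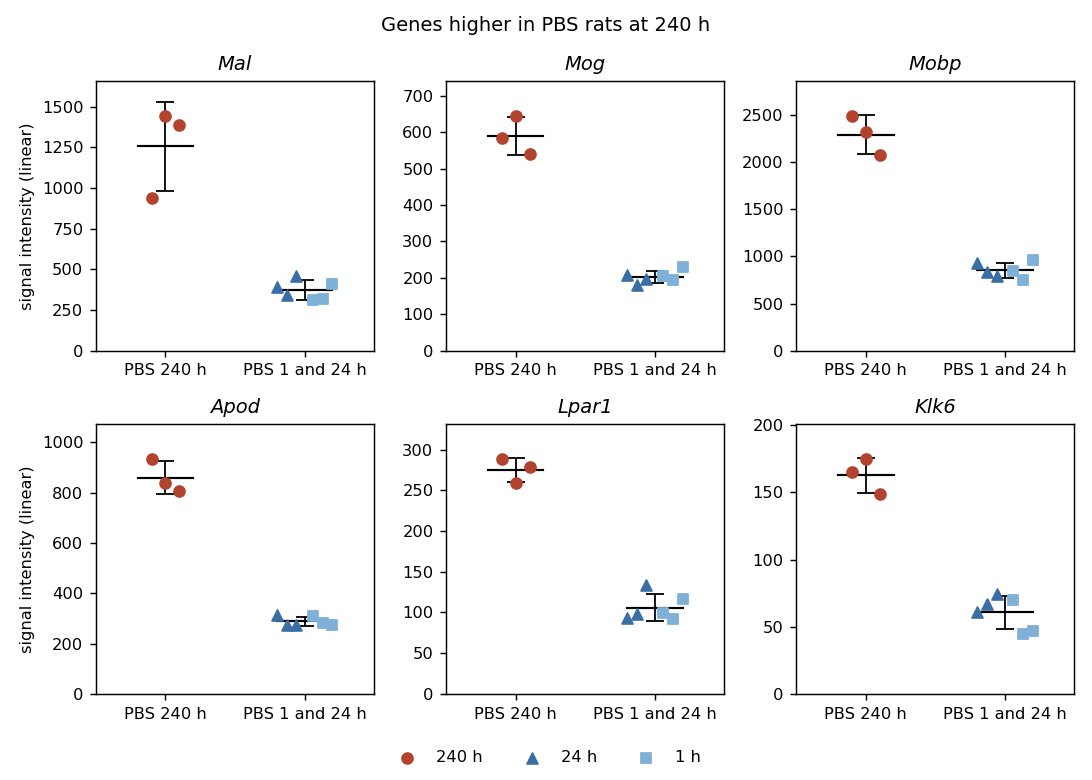
Signal intensity (linear, from 0) of 6 genes that were higher at 240 h in PBS rats, with 1 point per array and the 3 arrays of 240 h on the left and the 6 of 24 h (triangles) and 1 h (squares) on the right; lines are means and bars are SD. In each panel all 3 points of 240 h lie above all 6 earlier points, which was a condition for naming these genes. The points of 24 h and 1 h mix.

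The promoters of Mal and Mobp are shown because both genes rose; no promoter of Mog is printed here. They are the 250 bases before and 50 after the start in RefSeq's GRCr8 assembly, Mal at chr3:135341374-135341673 on the minus strand and Mobp at chr8:128746982-128747281 on the plus strand, written 5′ to 3′ along the gene. Capitals mark matches, on either strand, to ACAAAG (the core bound by SOX factors), CTGGCAC (a motif of the myelin factor Myrf), CAGCTG (an E-box), GGGCGG (a GC box) and TATAAA (the box that places many start sites), none of which overlap here.
Mal: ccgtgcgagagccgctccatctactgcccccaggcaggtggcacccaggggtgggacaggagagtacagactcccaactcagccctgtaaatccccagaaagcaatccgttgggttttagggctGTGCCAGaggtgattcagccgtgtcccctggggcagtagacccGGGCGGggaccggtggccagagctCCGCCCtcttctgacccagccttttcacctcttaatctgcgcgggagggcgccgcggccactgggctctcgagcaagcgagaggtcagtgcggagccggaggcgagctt
Mobp: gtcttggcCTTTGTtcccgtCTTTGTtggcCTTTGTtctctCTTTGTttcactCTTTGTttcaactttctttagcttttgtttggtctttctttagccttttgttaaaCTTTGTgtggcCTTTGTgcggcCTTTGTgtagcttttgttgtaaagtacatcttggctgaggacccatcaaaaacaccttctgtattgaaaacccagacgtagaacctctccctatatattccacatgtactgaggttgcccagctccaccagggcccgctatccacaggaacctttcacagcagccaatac
The Mal promoter holds 3 matches, a GC box on each strand and the Myrf motif on the reverse strand. Mobp holds 8 matches, all of the SOX core on the reverse strand, within a run of similar repeats. Over 27457 rat promoters of the same length, 18.3% hold the SOX core, 4.61% the Myrf motif and 34.9% a GC box. Among the genes of the comparison, the Myrf motif stood in 11.4% of 70 promoters of genes that rose and 6.59% of 91 of genes that fell, against 5.38% of 2769 tested. For the SOX core the shares were 14.3%, 14.3% and 12.9%, and for the GC box 65.7%, 69.2% and 63.0%. A match is a run of letters and not a bound site, and these shares are a description.

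The other myelin genes of the list that rose were Ugt8, Car2, Sox10 and Cnp, which have different roles. Ugt8, which makes galactosylceramide, read 1219, 1276 and 1134 at 240 h, against 443 to 822 (median 679.7) earlier (0.91 ± 0.16, adjusted p = 0.00589). Car2, the carbonic anhydrase of oligodendrocytes, read 555, 652 and 565, against 255 to 401 (median 323) earlier (0.88 ± 0.14, adjusted p = 0.00308). Neither gene overlapped between groups. Sox10, the transcription factor that holds oligodendrocyte identity, rose by 0.76 ± 0.18 (adjusted p = 0.0305). Cnp, an enzyme of the non-compact sheath, rose by 0.55 ± 0.11 (adjusted p = 0.0088). Myrf, the factor that switches on myelin genes, rose by 0.67 ± 0.13 (adjusted p = 0.00792). It was not on the list and was singled out after its value was seen.

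Myelin genes did not all move by the same amount. Mbp, the main basic protein of compact myelin, read 6924, 5315 and 5453 at 240 h, against 3796 to 5058 (median 4639) earlier. All 3 late values lay above the earlier ones, but the change of 0.38 ± 0.11 did not pass (adjusted p = 0.0692). Mag, an adhesion protein facing the axon, read 779, 884 and 933 against 627 to 900.2 (median 829.8), with overlapping groups (0.12 ± 0.13, adjusted p = 0.608). The precursor markers Pdgfra (0.04 ± 0.23) and Cspg4 (-0.14 ± 0.21) also overlapped between groups and did not pass. Whether Mal, Mog and Mobp differed from Mbp and Mag in their change was not tested.

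Several of the largest rises outside the list belong to genes that oligodendrocytes are known to express. Apod, a lipid-carrying lipocalin of glia, read 932, 838 and 805 at 240 h, against 273 to 314 (median 279) earlier (1.58 ± 0.11, 2.98-fold, adjusted p = 8.48e-06). Klk6, a secreted serine protease of oligodendrocytes, read 165, 174 and 149 against 44.9 to 74.3 (median 64.1) (1.45 ± 0.21, adjusted p = 0.00134). Lpar1, a lysophosphatidic acid receptor of myelinating cells, read 288, 259 and 279 against 91.6 to 134 (median 98.5) (1.40 ± 0.16, adjusted p = 0.000183). Each of the 3 stood clear of all earlier arrays.

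The remaining genes among the 10 largest rises have other roles. Apoc1, an apolipoprotein of lipid transport, read 165, 113 and 193 at 240 h, against 31.3 to 65.5 (median 53) earlier, at low signal and with a wide spread (1.68 ± 0.26, 3.2-fold, adjusted p = 0.00244). Ptk2b, a calcium-activated tyrosine kinase of neurons, rose by 1.25 ± 0.23 on its main probe set, and its other probe set rose too. Kcnab1, the beta subunit that speeds inactivation of Kv1 potassium channels, read 147, 205 and 143 against 48.2 to 90.5 (median 69.3) (1.28 ± 0.23, adjusted p = 0.00597). Rnase4, a secreted ribonuclease, rose by 1.29 ± 0.24 (adjusted p = 0.00792).

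Among genes of growing neurons and dividing cells, a minority fell at 240 h. Of 25 genes for developing neurons, axon growth and the cell cycle, 6 fell (24%, against 3.32% of all genes) and none rose, with a median change of -0.26. Their summed signal was 8220.0 to 8592 at 240 h and 11709.8 to 12332 earlier, without overlap, as in several other lists. The 6 were Gap43, Tubb2b, Top2a, Crmp1, Neurod1 and Stmn1. This list too was chosen with earlier results of these data known, so its share is a description.

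Gap43, a phosphoprotein of growth cones, read 696, 875 and 838 at 240 h, against 1488 to 1938 (median 1702) earlier. Every late array lay below every earlier one, and the level was 2.13 times higher in the earlier arrays (-1.09 ± 0.12, adjusted p = 0.00017). Tubb2b, the beta-tubulin of migrating and growing neurons, read 1731, 1598 and 1782 against 2859 to 3672 (median 3320.5) (-0.94 ± 0.10, adjusted p = 0.000144). Its probe set is of a type that may also detect related tubulins. Crmp1, a mediator of growth cone guidance, fell to 474, 556 and 586 at 240 h, against 756 to 1017 (median 907) earlier (-0.74 ± 0.12, adjusted p = 0.00305). Stmn1, which destabilises microtubules, read 961, 1112 and 931 against 1438 to 1728 (median 1556) (-0.65 ± 0.10, adjusted p = 0.00248). The groups of both genes were separate.

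The other members of this list that fell rested on a thinner margin. Neurod1, a transcription factor of new granule neurons, changed by -0.68 ± 0.18 (adjusted p = 0.042) on 1 of 2 probe sets. Top2a, a topoisomerase of dividing cells and also called on 1 of 2 probe sets, read 43.3, 53 and 30 against 60.2 to 109 (median 75.6) (-0.92 ± 0.24, adjusted p = 0.0429). When 1 of the 9 arrays was left out, Neurod1 passed in 2 fits and Top2a in 1. Plk1, a mitotic kinase outside the list, read 69.5, 55 and 117 against 159 to 208 (median 181) (-1.23 ± 0.21, adjusted p = 0.00411). It was named among the largest falls, which were picked only among called genes without overlap. Other genes that fell included Fabp5, a fatty acid binding protein (-0.85 ± 0.10, adjusted p = 0.000183), and Tubb5, another beta-tubulin (-0.47 ± 0.10, adjusted p = 0.0166). Fabp5 and Tubb5 were singled out after their values were seen.

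**Figure D2:**
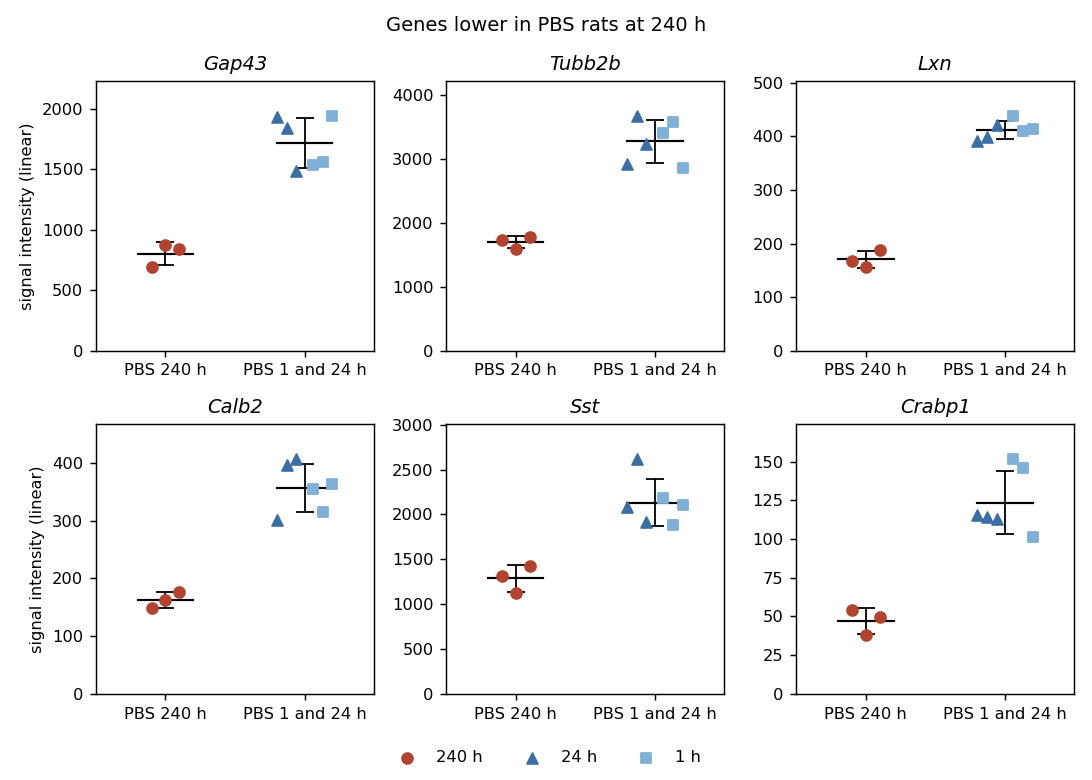
Signal intensity (linear, from 0) of 6 genes that were lower at 240 h in PBS rats, with 1 point per array and the 3 arrays of 240 h on the left and the 6 of 24 h (triangles) and 1 h (squares) on the right; lines are means and bars are SD. In each panel the 3 points of 240 h lie below all 6 earlier points, as in 96.7% of all called probe sets. Lxn read 156 to 188 at 240 h against 392 to 438 earlier. For Lxn and Crabp1 the lack of overlap was a condition for naming them.

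Lxn and Crabp1 were among the largest falls. Lxn encodes latexin, a carboxypeptidase inhibitor, and read 167, 156 and 188 at 240 h, against 392 to 438 (median 412) earlier (-1.28 ± 0.12, adjusted p = 3.01e-05). Crabp1, a retinoic acid binding protein, read 53.9, 37.9 and 49.9 against 102 to 151 (median 115) (-1.39 ± 0.19, adjusted p = 0.00122). The earlier level was 2.42 times the late one for Lxn and 2.62 times for Crabp1. Idh1, the cytosolic isocitrate dehydrogenase that makes NADPH, read 219, 139 and 111 against 282 to 409 (median 358) (-1.24 ± 0.19, adjusted p = 0.00276).

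The remaining large falls were mostly of weakly detected genes, where the floor set under low signals (10.9) limits what can be read. Nup54, a nuclear pore protein, read 12.1, 10.9 and 10.9 at 240 h, against 28.1 to 66.2 (median 50.4) earlier. Of its late arrays, 2 lay at the floor, so the fitted change of -1.97 depends on it. Selp, the adhesion receptor P-selectin, had 1 late array at the floor (-1.37 ± 0.37, adjusted p = 0.0449). Apom, an apolipoprotein (-1.36 ± 0.34), the AP-1 subunit Fosl2 (-1.24 ± 0.33), the growth factor Tgfb2 (-1.23 ± 0.32) and the carboxylesterase Ces1dl1 (-1.21 ± 0.27) completed the list, with adjusted p-values of 0.0341, 0.0421, 0.0422 and 0.022. Selp and Tgfb2 kept an adjusted p under 0.05 in only 1 of 9 fits that each left out an array, and Apom and Fosl2 in 3 of 9.

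Neuron markers moved in both directions. Of 20 tested, 4 rose (20%, against 2.73% of all genes) and 2 fell (10%, against 3.32%). Their summed signal overlapped between groups. Snap25, a core protein of vesicle fusion, read 2068, 2039 and 1979 at 240 h, against 1108 to 1437 (median 1232) earlier (0.70 ± 0.11, adjusted p = 0.00276). Its 4 probe sets disagreed: 2 rose, 1 read 0.50 and 1 read -0.57, both without passing. The microtubule proteins Mapt (0.57 ± 0.15) and Map2 (0.48 ± 0.12) and the vesicle protein Syn1 (0.54 ± 0.14) rose as well, each on 1 probe set, of 5 for Map2. Of the other 2 probe sets of Mapt, 1 fell (-0.63 ± 0.13, adjusted p = 0.012) and 1 read -0.10, so its direction is uncertain. With 1 array left out, Mapt and Basp1 passed in 2 of 9 fits, Map2 in 3 and Syn1 in 4. The 2 that fell were Gap43 and Basp1, another growth cone protein (-0.42 ± 0.11, adjusted p = 0.0392).

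Synaptic machinery and markers of hippocampal principal cells showed a few further rises. Among 36 genes of synaptic vesicles and release, 4 rose (11.1%, against 2.73% of all genes) and none fell: Snap25, Syn1, Napa and Dnm1. Napa, which recycles the fusion complex, read 1197, 1048 and 1279.5 at 240 h, against 683 to 821 (median 739) earlier (0.66 ± 0.11, adjusted p = 0.00323). Syt7, a calcium sensor of release, had the largest change of that list and did not pass (0.86 ± 0.47, adjusted p = 0.302). Of 11 principal cell markers 2 rose, Calb1 and Itpka, and Neurod1 fell. Dnm1 passed in 1 of 9 fits with 1 array left out and Itpka in 2. Calb1, the calcium buffer calbindin of granule and CA1 neurons, read 596, 631 and 635 against 302 to 464 (median 368), without overlap (0.73 ± 0.15, adjusted p = 0.0147). Ncdn, a neuronal cytoplasmic protein outside these lists, read 2190.3, 1955 and 2102 against 949 to 1366 (median 1228) (0.83 ± 0.12, adjusted p = 0.00145). Ddn, a dendritic protein, rose by 0.72 ± 0.12, and both were singled out after their values were seen.

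Among interneuron markers, 3 peptide precursors and 1 calcium-binding protein fell. These 4 of 16 make 25%, against 3.32% of all genes, none rose and the median change of the list was -0.01; without replicate 2 of 240 h 2 fell. Calb2, the calcium-binding protein calretinin, read 148, 163 and 176 at 240 h, against 302 to 406 (median 359) earlier (-1.13 ± 0.14, adjusted p = 0.000342). Sst, the somatostatin precursor, read 1317, 1127 and 1421 against 1882 to 2613 (median 2092) (-0.72 ± 0.12, adjusted p = 0.00323), and both of its probe sets fell. The highest late array of Calb2 was far below the lowest earlier one, at 176 against 302. Npy, neuropeptide Y, changed by -0.56 ± 0.13 (adjusted p = 0.0257) and Tac1, the substance P precursor, by -0.64 ± 0.13 (adjusted p = 0.0127), on 1 of 2 probe sets for Tac1.

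The other 12 interneuron markers gave no call. Gad1, which makes GABA, read 467, 698 and 674 at 240 h, against 648 to 744 (median 693) earlier (-0.20 ± 0.13, adjusted p = 0.388), and Pvalb, the marker of fast-spiking cells, read 183, 185 and 179 against 158 to 206 (median 168) (0.08 ± 0.13, adjusted p = 0.772). Both overlapped between groups. Calb2 and Tac1 are also markers of neighbouring regions, a list on which 3 of 20 genes fell (15%, against 3.32% of all genes). The third was the growth factor carrier Igfbp2 (-0.71 ± 0.17, passing in 5 of 9 fits with 1 array left out). That list's summed signal was 3012 to 5471 at 240 h and 3264 to 6567 earlier, Ttr included, and its part in the falls was not tested. One peptide precursor rose, Adcyap1, which encodes PACAP (0.85 ± 0.17, adjusted p = 0.0133), on 1 of 3 probe sets. Of 28 neuropeptides and growth factors it was the only rise (3.57%, near the 2.73% of all genes), while Sst, Npy and Tac1 fell (10.7%, against 3.32%). The largest change of that list, of the opiomelanocortin precursor Pomc, did not pass (0.89 ± 0.57, adjusted p = 0.38).

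Reactive astrocyte genes mostly read lower at 240 h and astrocyte markers mostly higher, though few of either were called. Among 11 reactive astrocyte genes, Vim and S100a10 fell (18.2%, against 3.32% of all genes) and none rose. The list had the lowest median of all 30 lists at -0.31, and 2 of the 11 had a positive change. Its summed signal was 1028 to 1083 at 240 h and 1252 to 1421 earlier. Vim, the intermediate filament vimentin, read 152, 81.8 and 77.9 at 240 h, against 186 to 276 (median 206) earlier (-1.16 ± 0.22, adjusted p = 0.0071). S100a10, an annexin partner, changed by -0.63 ± 0.17 (adjusted p = 0.0426) and passed in 2 of 9 fits with 1 array left out. Of 14 astrocyte markers, 10 had a positive change, with a list median of 0.22. Their summed signal was 16698 to 18723 at 240 h and 13608.5 to 16041 earlier. The extracellular protein Sparcl1 (0.43 ± 0.09) and the glycolytic enzyme Aldoc (0.41 ± 0.09) were called higher (14.3%, against 2.73% of all genes). The second Aldoc probe set read 0.26 without passing (adjusted p = 0.252). Fabp7, the lipid carrier of radial glia and immature astrocytes, fell to 154, 218 and 221 at 240 h, against 256 to 365 (median 314) earlier (-0.63 ± 0.16, adjusted p = 0.0383), and it too passed in 2 of 9 such fits.

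Microglia and blood lists each held a pair of rises, where 2.73% of all genes rose. Ctss, the lysosomal protease cathepsin S of microglia, read 1564, 1147 and 1436 at 240 h, against 616 to 740.4 (median 664) earlier (1.03 ± 0.12, 2.04-fold, adjusted p = 0.000247). Cathepsin B, Ctsb, rose by 0.48 ± 0.12 (adjusted p = 0.0404, passing in 2 of 9 fits with 1 array left out), and the other 10 of 12 microglial markers did not pass. The beta-globins Hbb and Hbb-b1 rose by 0.75 ± 0.16 and 0.79 ± 0.14, on probe sets that may each detect several globin transcripts. Summed over 14 blood and endothelial markers, the signal was 7967 to 9352 at 240 h and 4307 to 6842 earlier, without overlap, as in several other lists. Most of this sum was globin: Hbb averaged 4301 and Hbb-b1 2753 at 240 h, against 2591 and 1609.7 earlier. The median change of the 14 markers was 0.05, with 8 of 14 positive. Hba-a3, an alpha-globin, had the largest change of the list and did not pass (1.29 ± 0.41, adjusted p = 0.0878). The part of blood left in the tissue in the other results was not tested. Of 15 complement and antigen presentation genes none passed, the largest change being that of the immunoproteasome subunit Psmb8 (1.46 ± 0.46, adjusted p = 0.0823).

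The calls in the lists of lipid synthesis, ribosomal proteins and oxidative phosphorylation were all falls. Of 23 genes listed under cholesterol and lipid synthesis, 6 fell (26.1%, against 3.32% of all genes) and none rose, while 10 of the 23 had a positive change. Of the 6, Lpl and Acat1 are not enzymes of the sterol pathway. Lpl, lipoprotein lipase, read 261, 269 and 337 at 240 h, against 367 to 512 (median 498) earlier (-0.72 ± 0.14, adjusted p = 0.0088). The sterol pathway enzymes Fdps (-0.56 ± 0.13), Dhcr7 (-0.53 ± 0.14), Sqle (-0.46 ± 0.12) and Idi1 (-0.62 ± 0.17) and the thiolase Acat1 (-0.47 ± 0.12) also fell, all at adjusted p between 0.0249 and 0.0495. Idi1 alone of the 6 overlapped between groups. The list's summed signal did not separate the groups, and its count was 0 without replicate 2 of 240 h, 1 without replicate 1 or 3 of 240 h or replicate 2 of 24 h, 2 without replicate 1 of 1 h, and 3 without replicate 1 or 3 of 24 h. It was 1 without the intensity trend and 1 with the replicate block. With 1 array left out, Idi1 passed in 1 of 9 fits, Sqle and Dhcr7 in 2, Acat1 in 3 and Fdps in 4. The largest change of the list was that of Mvd, another sterol pathway enzyme, which did not pass (-0.84 ± 0.27, adjusted p = 0.0902).

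Among cytosolic ribosomal proteins 6 of 37 fell (16.2%), and among oxidative phosphorylation subunits 4 of 33 (12.1%), with no rise in either. Of all genes 3.32% fell. Rplp0, a ribosomal stalk protein, read 2075, 1827 and 2159 at 240 h, against 2339 to 3173 (median 3002) earlier (-0.52 ± 0.11, adjusted p = 0.0151). Cox5b, a subunit of cytochrome oxidase, fell to 1589.8, 1280.1 and 1388 at 240 h, against 1827 to 2138 (median 2048) earlier (-0.52 ± 0.10, adjusted p = 0.00756), and its second probe set read -0.13 (adjusted p = 0.568). Without replicate 2 of 240 h these counts were 1 and 0, without replicate 3 of 240 h 2 and 2, and without replicate 1 of 240 h 3 and 7. Without replicate 3 of 24 h the ribosomal count was 3. Both counts were 0 in a fit without the intensity trend, and with the replicate block they were 2 and 3. The summed signal of the oxidative phosphorylation subunits was 32574 to 37634 at 240 h and 38317 to 40613 earlier, without overlap, as in several other lists. That of the ribosomal proteins overlapped. Slc16a1, the monocarboxylate transporter that passes lactate and ketone bodies into the brain, read 182, 261 and 152 at 240 h, against 296 to 481 (median 385) earlier (-1.03 ± 0.19, adjusted p = 0.0068), and its second probe set read -0.51 without passing (adjusted p = 0.104). 

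Further members of these lists were named by the same rule. Rps24, a small subunit protein, fell to 171, 125 and 104 at 240 h, against 175 to 281 (median 234) earlier (-0.80 ± 0.18, adjusted p = 0.0241). Rpl30, a large subunit protein, had the largest ribosomal change and did not pass (-1.04 ± 0.50, adjusted p = 0.246). Ndufb5, a subunit of respiratory complex I, fell to 485, 427 and 463 at 240 h, against 559 to 738 (median 689) earlier (-0.54 ± 0.12, adjusted p = 0.0178), on 1 of 2 probe sets. Atp5pd, a subunit of ATP synthase, had the largest change of its list and did not pass (-0.68 ± 0.20, adjusted p = 0.0652). Of 27 antioxidant genes the glutathione transferases Gsta1 (0.87 ± 0.14) and Gstm1 (0.53 ± 0.12) rose (7.41%, against 2.73% of all genes), on 2 and 1 of 3 probe sets. Gsta3, of the same family, read -1.31 ± 0.37 without passing (adjusted p = 0.0575).

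The lists of inflammation, receptors and protein folding held 1 or 2 calls each, where 6.05% of all genes were called. Of 16 genes of cytokines, chemokines and acute inflammation, Cebpb rose and Selp fell. Cebpb, a transcription factor of the acute phase response, read 108, 102 and 100.3 at 240 h, against 51.3 to 76.9 (median 59.4) earlier (0.78 ± 0.19, adjusted p = 0.0294), and passed in 3 of 9 fits with 1 array left out. Of 36 monoamine, acetylcholine and peptide receptors only Ntsr2, a neurotensin receptor, passed. It read 627, 656 and 664 at 240 h, against 441 to 481 (median 452) earlier, without overlap (0.50 ± 0.10, adjusted p = 0.0119). Adora1, the adenosine A1 receptor, had the largest change of that list, on overlapping low signals (-1.15 ± 0.59, adjusted p = 0.277). Of 23 heat shock and endoplasmic reticulum stress genes only Hspe1, a mitochondrial cochaperonin, passed, as a fall (-0.35 ± 0.09, adjusted p = 0.0495) on 1 of 2 probe sets and in 1 of 9 fits with 1 array left out. Hspa9, the mitochondrial Hsp70, read 0.80 ± 0.26 without passing (adjusted p = 0.0891).

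Calls in the matrix list were falls and those in the channel list were rises. Of 27 collagen, matrix and vascular wall genes 3 fell (11.1%, against 3.32% of all genes): the metalloprotease Mmp14 (-0.87 ± 0.21), fibronectin Fn1 (-0.71 ± 0.18) and the collagen Col1a1 (-0.62 ± 0.14). The other 2 probe sets of Fn1 read -0.37 and -1.34 without passing. Of 38 ion channel genes only Kcnab1 and Kcnab2, both beta subunits of Kv1 channels, passed, and both rose (5.26%, against 2.73% of all genes). Kcnab2 read 1132, 1007 and 1182 at 240 h, against 579.7 to 842 (median 632) earlier (0.75 ± 0.13, adjusted p = 0.00437), and its second probe set read 0.25 without passing (adjusted p = 0.405). The chloride transporters Slc12a5, which lowers neuronal chloride (0.62 ± 0.16, adjusted p = 0.0408), and Slc12a2, which raises it (0.61 ± 0.15, adjusted p = 0.0341), both rose, Slc12a2 on 1 of 3 probe sets. With 1 array left out, Slc12a5 passed in 1 of 9 fits, Slc12a2 in 3, Fn1 in 4 and Mmp14 in 5.

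Genes that respond within hours to activity were called about as often as all genes, of which 6.05% were called. Of 16 immediate early transcription factors Fosl2 passed (6.25%), and of 18 activity-regulated effectors Rgs4 did (5.56%), a regulator of G protein signalling (-0.74 ± 0.17, adjusted p = 0.025). Dusp1, a phosphatase that damps MAP kinases, had the largest change of the effectors and did not pass (0.79 ± 0.32, adjusted p = 0.167). The second Fosl2 probe set read -0.26 (adjusted p = 0.538). No gene passed among 10 glucocorticoid-responsive genes, 15 hypoxia and handling genes, 21 glutamate receptors and transporters or 19 genes of GABA receptors, synthesis and transport. With complement, these make 5 of 30 lists without a call by limma, and an unadjusted p under 0.05 was found for 6 glucocorticoid, 4 hypoxia, 4 glutamate, 0 GABA and 6 complement genes. The largest changes in the first 4 of these lists were those of Cdkn1a, the cell cycle inhibitor p21, on the glucocorticoid and hypoxia lists (-0.88 ± 0.36, adjusted p = 0.173), the NMDA receptor subunit Grin3a (-0.77 ± 0.25, adjusted p = 0.0902) and the GABA receptor subunit Gabrg3 (-0.51 ± 0.59, adjusted p = 0.653). In the list of clock genes 2 of 10 rose (20%, against 2.73% of all genes) and all 10 had a positive change, with a median of 0.37. Bhlhe40, a repressor of clock output, read 114, 116 and 104 at 240 h, against 49.5 to 87.8 (median 61.5) earlier (0.84 ± 0.21, adjusted p = 0.0366). Nr1d2, the nuclear receptor REV-ERB-beta, read 129, 110.4 and 92.1 against 47.1 to 84.8 (median 63.8) (0.79 ± 0.21, adjusted p = 0.0426). With 1 array left out, Bhlhe40 passed in 2 of 9 fits and Nr1d2 in 1. The labels give no hour of sacrifice.

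**Figure D3:**
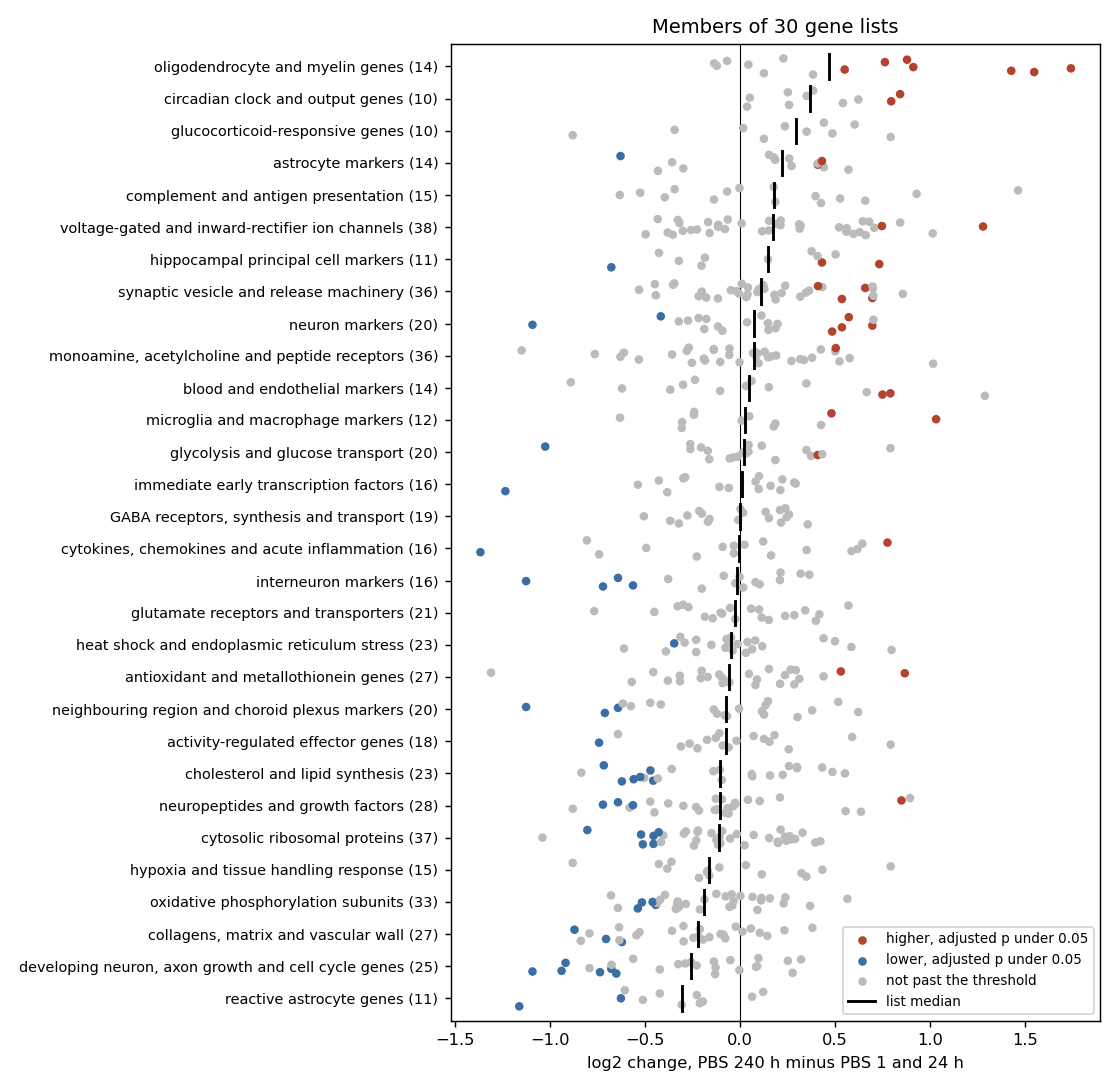
Log2 change (240 h minus 1 and 24 h, PBS rats) of each tested member of 30 gene lists, 1 point per gene, with the number of members in brackets, lists ordered by their median (black bar) and called genes in red (higher) or blue (lower). Myelin genes stand at the top with a median of 0.47, and the developing neuron and reactive astrocyte lists at the bottom with -0.26 and -0.31.

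Few probe sets differed between the earlier groups. Between 24 h and 1 h, 3 probe sets were called (0.0533%), all higher at 24 h and none with a single gene name, and 297 (5.28%) had an unadjusted p under 0.05. Set against each earlier group alone, the 240 h arrays gave 150 calls against 24 h (2.67%) and 196 against 1 h (3.48%), of which 132 and 163 were among the 300. Mal averaged 399 at 24 h and 347 at 1 h (adjusted p = 0.924), and Gap43 1753 at 24 h and 1679 at 1 h (adjusted p = 0.975). In both genes the arrays of 24 h and 1 h overlapped.

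The arrays of 72 h and 6 h give the same kind of comparison in PBS rats that were not used above, on arrays that share no sample with it. Only Mal passed the test there, at 0.0178% of the probe sets tested, and 482 (8.57%) had an unadjusted p under 0.05. Mal averaged 804 at 72 h and 314 at 6 h, a change of 1.38 (adjusted p = 0.0496). The call was lost without any 1 of the 3 arrays of 72 h and without replicate 3 of 6 h. Of the 131 probe sets that rose at 240 h, 118 were higher at 72 h than at 6 h (90.1%, against 47.8% of all tested), with a median of 0.28. Of the 169 that fell, 124 were lower at 72 h (73.4%, against 52.2% of all tested), with a median of -0.17.

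Single genes shown above, other than Mal, did not pass at 72 h. At 72 h against 6 h, Mog changed by 0.96 (adjusted p = 0.0605), Mobp by 0.81 (adjusted p = 0.057) and Apod by 0.75 (adjusted p = 0.0989). The falling genes Gap43 (-0.52), Tubb2b (-0.56) and Calb2 (-0.49) were lower at 72 h, with adjusted p of 0.455, 0.345 and 0.423. Sst read 0.05, Vim -0.04 and Hbb -0.23 in the same comparison (adjusted p = 0.906, 0.948 and 0.658).

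**Figure D4:**
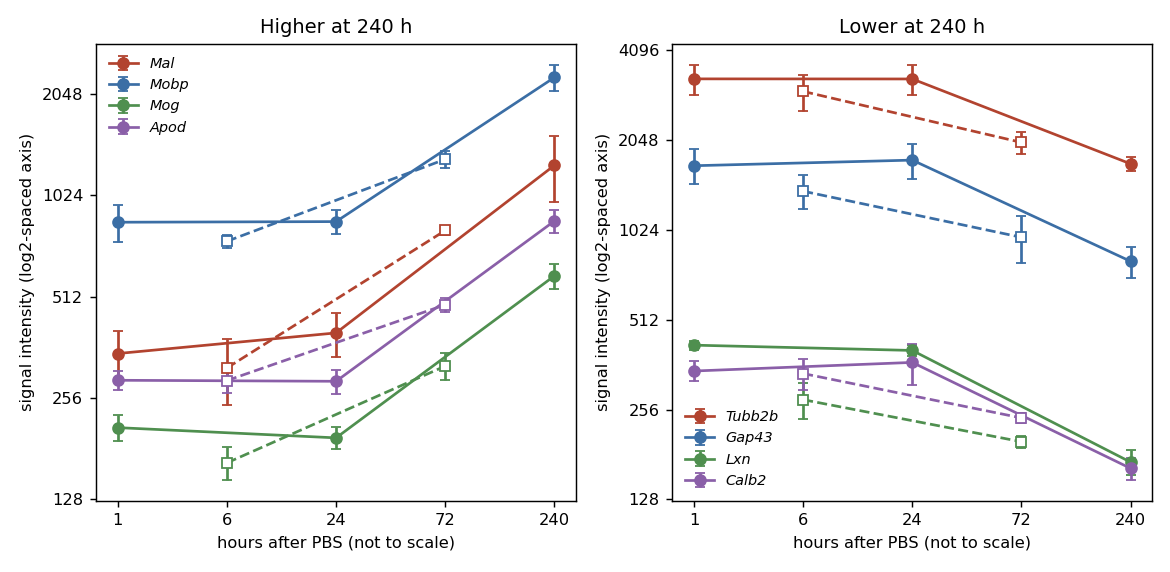
Mean signal intensity (log2-spaced axis) with SD over 3 arrays at 1, 6, 24, 72 and 240 h after PBS for 4 genes that were higher at 240 h (left) and 4 that were lower (right); filled circles join 1, 24 and 240 h, open squares join 6 and 72 h, whose arrays stand apart as a set. Mal averages 347 at 1 h and 1256 at 240 h, and in each panel the values of 72 h lie between those of 1 h and 240 h.

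Rats given kainate were sampled at the same times, on 9 further arrays. Their earlier groups carry the response to kainate itself, so the values are set beside those of PBS rats and read no further. Comparing 240 h with 24 h and 1 h among kainate rats, 49 probe sets were called with the earlier arrays pooled (0.871%), and 189 with a mean for each group (3.36%), a fit added after the data were seen. Of the 131 probe sets that rose in PBS rats, 112 were also higher in kainate rats (85.5%, against 58.3% of all tested), and 37 of them were called higher in the fit with group means, where 1.49% of all tested were. Of the 169 that fell, 145 were lower (85.8%, against 41.7%), and 34 were called lower, against 1.87% of all tested. One probe set was called in the opposite direction.

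Some myelin and growth genes were also called in kainate rats. In the fit with group means Mal changed by 2.08 (adjusted p = 3.73e-05), Mobp by 1.75 (adjusted p = 1.4e-05) and Mog by 1.39 (adjusted p = 0.000379). Tubb2b changed by -1.48 (adjusted p = 3.32e-06), Lxn by -1.47 (adjusted p = 0.000109) and Calb2 by -0.98 (adjusted p = 0.00392). In all, 6 of 14 myelin genes rose there (1.45% of all genes rose) and 4 of 25 developmental genes fell (1.75% of all genes fell). The other 8 and 21 were not called in those directions. Larger shares fell there in other lists, so falls were not particular to the developmental genes. They were called for 5 of 16 interneuron markers, 5 of 18 activity-regulated effectors, 3 of 11 reactive astrocyte genes and 7 of 28 neuropeptides and growth factors. Vim changed by -1.92 in kainate rats and -1.16 in PBS rats, and S100a10 by -2.08 and -0.63, but the difference between the treatments did not pass for either gene (adjusted p = 0.245 and 0.131). At 240 h Vim averaged 121 in kainate rats and 104 in PBS rats, and S100a10 80.7 and 87.7. At 24 h Vim averaged 1158 and 197, and S100a10 747 and 137.

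**Figure D5:**
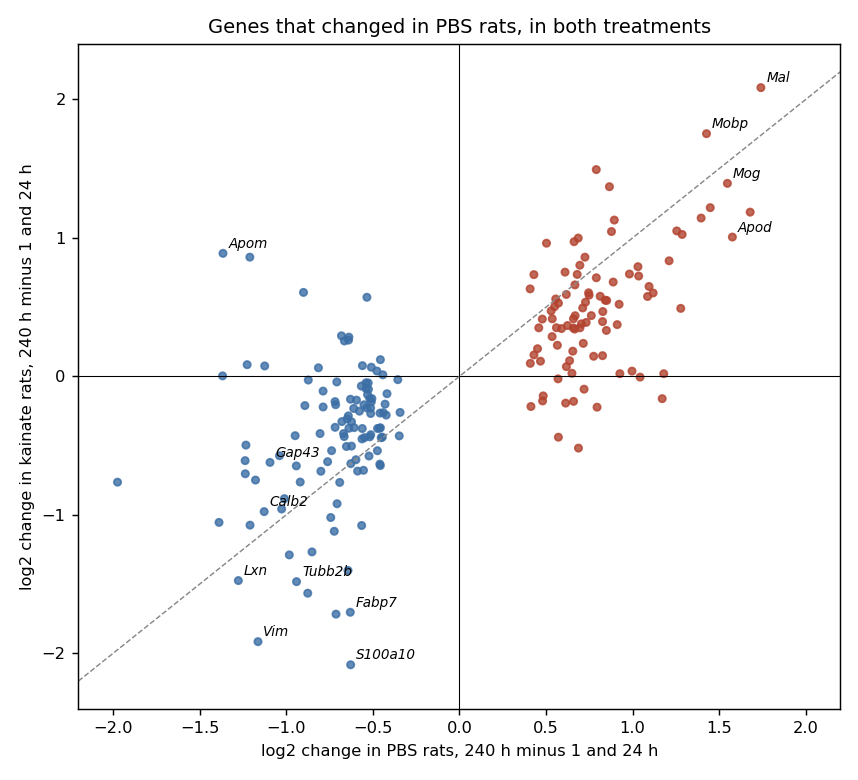
Log2 change of 240 h minus 1 and 24 h in PBS rats (horizontal) and in kainate rats (vertical) for the 204 genes called in PBS rats, red where higher and blue where lower in PBS rats; the dashed line marks equal change. Of 92 genes that rose in PBS rats 80 lie above 0 in kainate rats, and of 112 that fell 95 lie below 0.

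The change itself differed between kainate and PBS rats for 21 probe sets (0.373%), in a test over 18 arrays added after the data were seen. Of these, 14 were not called in PBS rats, among them those of the neuropeptide precursor Vgf, the heat shock protein Hspb1 and the nuclear receptor Nr4a1. Of the genes named above only Apom and Fabp7 were among them. Fabp7 changed by -1.70 in kainate rats and -0.63 in PBS rats. Its level at 240 h was similar, with averages of 184 in kainate rats and 198 in PBS rats, while at 24 h it averaged 994 and 276. Apom read 0.89 in kainate rats, without passing there, and -1.36 in PBS rats.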

How the data were processed

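Signal intensity is as the submitters deposited it: linear values, already at a common level. No source used here says how scans were turned into signals. Trimmed means (2% off each end) lay between 150.1 and 150.2; arrays were scaled to a common one, given a floor at 10.9 (percentile 20 over all arrays) and log2-transformed. The 59 array controls were left out. Groups follow the labels. Names came from the platform annotation, updated through gene identifiers to RefSeq's GRCr8 genes: of 8740 probe sets 7006 had 1 gene, 308 several and 1426 none, and 45 of the 300 called were unnamed.

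Fits used limma 3.58.1 in R 4.3.3 (lmFit, eBayes with intensity trend) and Benjamini-Hochberg adjustment. Arrays have no read depth, so their number limits precision. The fit was tested on simulated data for 240 h against 1 and 24 h, with independent noise and 200 of 5626 probe sets changed. There it recovered 62% of log2 changes of 1 and 9% of those of 0.5, with 6.58% of calls false, so most changes near 0.5 were missed. In the real arrays 21.3% of probe sets had an unadjusted p under 0.05 by limma, so these rates need not hold for them. Genes named are, with the probe set of highest mean signal, the 10 largest rises and 10 largest falls among called genes without overlap, and from each of 30 lists the 2 called members with the largest change and the member with the largest change; others were singled out after their values were seen. Members and lists were chosen with earlier results of these data known. Replicate numbers of the labels did not pair arrays (r of deviations -0.18 to 0.04 over 9 pairs). Alternatives and left-out arrays are given in the closing section.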

Additional observations from a re-analysis of the deposited data

Results flagged for a closer look

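In PBS arrays of 1 and 24 h, 3 values stood apart from the other 5 of their group, out of 80 tested; chance alone would flag about 1 in 20 groups. Rpl30, a ribosomal protein, read 37.6 in replicate 3 of 24 h, against 86.7 to 116 in the others. Lpl read 367 in the same array, against 466.4 to 511.6. The log2 ratio of the Gapdh 3′ to 5′ probe sets was -0.362 in replicate 1 of 24 h, against 0.024 to 0.107. Without replicate 3 of 24 h there were 200 calls, and without replicate 1 of 24 h there were 289, against 300 with all arrays.

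The change from the earlier times to 240 h differed between kainate and PBS rats for 21 probe sets by a test of the difference. For Apom the kainate change exceeded the PBS change by 2.25 on the log2 scale (adjusted p = 0.0347), and for Fabp7 the difference was -1.07 (adjusted p = 0.0314).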

How the results depend on the processing

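The 300 calls became 196 against 1 h alone, 150 against 24 h alone, 545 with all 30 arrays in the fit, 131 without the intensity trend and 510 with array weights. The share of calls that were higher was 43.7% and became 55% without the trend. With the replicate number as a block the count was 157, although the numbers did not pair the arrays. Leaving out 1 array gave 101 to 349 calls: 156, 101 and 166 without replicates 1, 2 and 3 of 240 h, 184 without replicate 1 of 1 h and 197 without replicate 2 of 24 h. Under quantile normalization, other floors and filters, a robust prior, 3 group means or 18 arrays the count stayed within 1.5 times of 300. The 7 myelin genes that rose became 5 to 7 and the 6 developmental genes that fell 4 to 7 when an array was left out. The 6 ribosomal, 6 lipid synthesis and 4 oxidative phosphorylation falls became 0, 1 and 0 without the trend, 2, 1 and 3 with the block, 2, 2 and 3 against 1 h alone and 5, 2 and 2 against 24 h alone. The ribosomal count was 2 with no filter and 3 with 18 arrays, the oxidative phosphorylation count 8 with array weights, and the interneuron count 2 against 24 h alone. In kainate rats the 49 calls became 24 with the replicate block, 189 with group means (added after seeing the data) and 16 to 72 without 1 array, with 16, 26 and 20 without replicates 1, 2 and 3 of 240 h. The single call of 72 h against 6 h became 0 with the block and 0 to 8 without 1 array; the 3 calls of 24 h against 1 h became 3 to 4. Of the 71 genes that the naming rule chose, 57 were called, and 23 of these were called whichever of the 9 arrays was left out. Over all alternatives, a called gene of these kept its call in 1087 fits and lost it in 274, always with the same sign. Gabrg3, a GABA receptor subunit that did not pass, read 0.0029 against 1 h alone and -0.51 in the whole comparison. The cause of these changes was not tested, beyond the fewer arrays. With 3 late arrays, changes of low-signal genes near the floor are the least certain.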
